A study of Mus musculus with 12 samples.

Results

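The adipocyte and lipid storage genes are a list of 34 mouse genes for hormones of fat cells, proteins that coat lipid droplets, and enzymes that make, store and release fat. A gene was measured where at least 3 probesets of the array carried its symbol alone. That held for 33 of the 34 genes, with 488 probesets, out of 15025 genes measured in all. Adrb3, the beta-3 adrenergic receptor that triggers fat breakdown, had no probeset of its own symbol and was not analysed here. The genes were read as a sign of fat pad in the tumour samples and as a part of the lipid metabolism of the tumours.

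The samples were primary tumours of 4 related mouse mammary carcinoma cell lines, each measured on 3 exon arrays (12 arrays in all), and the series was made to look for exons that go with metastasis. As background on the model, 4T1 spreads to several organs, 4T07 gets as far as the lung but grows no nodules there, 168FARN gets as far as the lymph nodes, and 67NR stays where it was put. The hosts were BALB/c females, 3 months old, and the cells went into the fourth mammary fat pad of 13 mice for 4T1, 15 for 4T07, 11 for 168FARN and 8 for 67NR. Tumours were removed when the group average reached 1 to 2 cm. All groups thus share host strain, sex, age and site, and no sample of uninjected fat pad was among the arrays. Each behaviour is represented by a single cell line, so line and behaviour cannot be told apart. The labels call every sample a primary breast tumour, and none states that the 3 arrays of a line came from separate mice. Every p-value below is thus set against a spread between arrays that may be technical. In a bulk sample, fewer cells of a type and less RNA per cell cannot be told apart.

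White fat cells store triglyceride in a large lipid droplet and fill most of the mammary fat pad in which these tumours grew. Perilipin-1 (Plin1) coats the droplet, and the fatty acid enters the cell after lipoprotein lipase (Lpl) has freed it from circulating fat. Fat cells also secrete adiponectin (Adipoq), leptin (Lep), resistin (Retn) and adipsin (Cfd). Tumour cells make fatty acids themselves with Acly, Acaca and Fasn, and add double bonds to them with the stearoyl-CoA desaturases Scd1 and Scd2, so the synthesis genes of the list are not specific to fat cells.

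Values are log2 signals per gene, the median over its probesets, so a difference of 1 is a 2-fold difference. A level of 5.08, the 95th percentile of 335 olfactory receptor genes, served as the scale of background. The median level of all genes was 7.39. All but 3 of the 33 genes were over the background level on at least 11 arrays. Leptin and Cidea, a droplet protein of brown fat, were under it on all 12 arrays, and Ucp1, the uncoupling protein of brown fat, was over it on 1 array. Of the other defining markers of fat cells, Adipoq, Retn, Cfd, Plin1 and Cidec were over background on all 12 arrays. By their mean level, 11978 of all 15025 genes were over it too, so this does not by itself show fat cells. Array medians over all probesets ran from 7.21 to 7.57, with 4T07 array 1 the lowest. That array was also the lowest of its line for 26 of the 33 genes, beside 59.6% of all genes.

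The main feature of the adipocyte genes was a difference between arrays of the same line. The promoters of 3 genes that showed it are given first, from RefSeq on the GRCm38.p6 build, as 300 bases that end shortly after the start, 5′ to 3′ on the strand of the gene. Adipoq lies on chr16:23146286-23146585 (plus strand), Plin1 on chr7:79732727-79733026 (minus strand) and a start of Cidec, a droplet fusion protein, on chr6:113434715-113435014 (minus strand). Capitals mark the letters TTGCNNAA of C/EBP in Plin1 and Cidec, and CCAAT of NF-Y, on either strand, in Adipoq.
Adipoq: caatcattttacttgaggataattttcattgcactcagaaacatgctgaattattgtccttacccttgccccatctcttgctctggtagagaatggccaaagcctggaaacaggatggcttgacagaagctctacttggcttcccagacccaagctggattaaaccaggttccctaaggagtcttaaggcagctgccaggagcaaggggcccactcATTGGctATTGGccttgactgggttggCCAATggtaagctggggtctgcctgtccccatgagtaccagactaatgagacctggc
Plin1: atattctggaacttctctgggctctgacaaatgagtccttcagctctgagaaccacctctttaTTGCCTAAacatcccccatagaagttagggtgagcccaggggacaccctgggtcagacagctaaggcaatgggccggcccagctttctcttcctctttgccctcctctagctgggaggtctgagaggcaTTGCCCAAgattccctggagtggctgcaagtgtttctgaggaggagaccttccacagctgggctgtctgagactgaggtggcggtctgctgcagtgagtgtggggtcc
Cidec: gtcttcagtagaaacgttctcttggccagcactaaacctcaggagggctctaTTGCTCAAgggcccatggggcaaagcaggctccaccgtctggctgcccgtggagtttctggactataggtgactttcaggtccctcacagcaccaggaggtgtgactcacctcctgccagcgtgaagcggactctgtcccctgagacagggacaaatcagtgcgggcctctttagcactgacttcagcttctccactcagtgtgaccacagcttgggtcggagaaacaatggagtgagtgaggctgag
The C/EBP letters were found in 4 of the 31 promoters of the list (12.9%), against 10.8% of all 32851 promoters, and the NF-Y letters in 11 of 31 (35.5%), against 37.4%. The list promoters, which belong to 23 of its genes, thus held both motifs about as often as promoters in general. A match is a description of letters, not a binding site.

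Adipsin, the complement protease that fat cells secrete, showed the array differences clearly. On the arrays in order 1 to 3 it was at 8.13, 7.72 and 8.59 in 4T1, 8.81, 9.72 and 9.06 in 4T07, 9.80, 8.73 and 8.73 in 168FARN, and 7.63, 8.46 and 9.45 in 67NR. The high arrays were array 2 of 4T07, array 1 of 168FARN and array 3 of 67NR, and the 4T1 arrays lay below those of 4T07 and 168FARN while the other pairs of lines overlapped. Retn, the adipokine resistin, was at 6.47, 6.51 and 6.55 in 4T1, 6.42, 7.53 and 6.93 in 4T07, 8.13, 6.75 and 7.22 in 168FARN, and 6.38, 6.30 and 7.65 in 67NR. The same 3 arrays were the highest of their lines, and the 4T1 arrays lay within 0.08 of each other.

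Of the droplet proteins, Plin1 and Cidec were highest of their lines on the same 3 arrays, and Plin2 and Plin4 on only some of them. Plin1 was at 7.13, 6.95 and 7.02 in 4T1, 7.06, 7.66 and 6.96 in 4T07, 7.57, 7.12 and 6.97 in 168FARN, and 6.72, 6.87 and 7.86 in 67NR. Cidec, which moves fat between droplets that touch, was at 7.19, 7.18 and 7.53 in 4T1, 7.70, 8.29 and 7.70 in 4T07, 8.09, 7.53 and 7.51 in 168FARN, and 6.80, 7.25 and 8.29 in 67NR. In both genes 67NR held the lowest array of the 12. For Plin1 it also held the highest, and for Cidec 67NR array 3 and 4T07 array 2 were both at 8.29. Plin4, a coat protein of nascent droplets, was at 7.07, 6.93 and 7.28 in 4T1, 7.35, 7.22 and 7.0 in 4T07, 7.35, 7.11 and 7.10 in 168FARN, and 6.78, 6.58 and 7.49 in 67NR, so its highest 4T07 array was array 1. Plin2, the coat protein of droplets outside fat cells, was at 10.39, 10.68 and 10.76 in 4T1, 10.86, 10.95 and 11.27 in 4T07, 10.93, 10.87 and 10.38 in 168FARN, and 10.78, 11.05 and 10.86 in 67NR. Its highest arrays were array 3 of 4T07, array 1 of 168FARN and array 2 of 67NR.

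**Figure D1:**
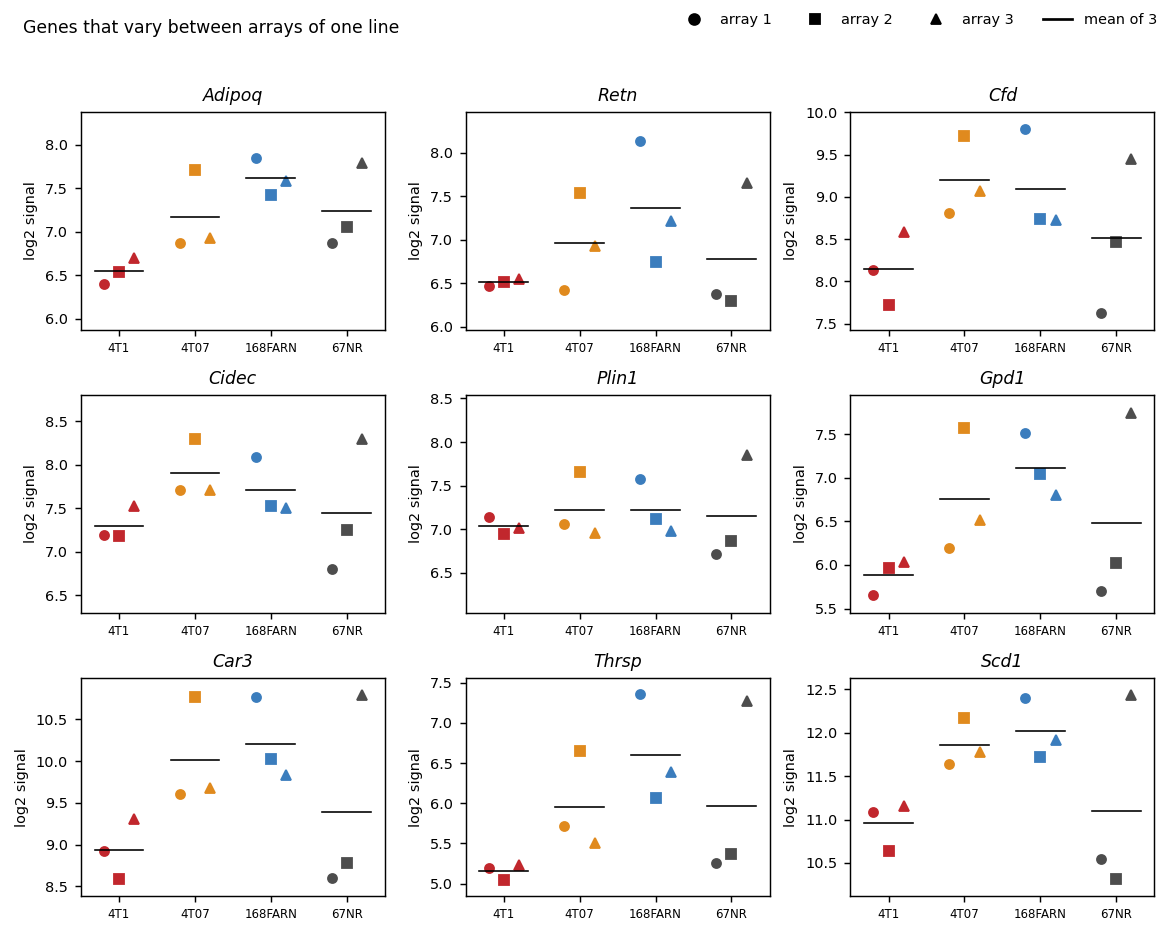
Log2 signal (vertical axis) of 9 genes by line (horizontal axis: 4T1, 4T07, 168FARN, 67NR), with 1 point per array shaped by array number and a bar for the mean of 3. In Adipoq, Retn, Cfd, Cidec, Plin1, Gpd1, Car3, Thrsp and Scd1 the highest array is array 2 of 4T07, array 1 of 168FARN and array 3 of 67NR.

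Over the whole list, 67NR array 3 was the highest of its line for 27 of 33 genes (81.8%), while the same held for 27.8% of all genes measured. 4T07 array 2 was the highest for 26 of 33 (78.8%), beside 37.9% of all genes, and 168FARN array 1 for 21 of 33 (63.6%), beside 26.2%. In 4T1 the differences were smaller. Array 3 was the highest for 15 of 33 (45.5%), beside 30.3% of all genes. Array 1 was the highest for 11 (33.3%), beside 24.4%, and array 2 for 7 (21.2%), beside 45.3%. Of the 5 defining markers over background (Adipoq, Plin1, Cidec, Cfd and Retn; Lep was left out), 5 were highest on 4T07 array 2, 5 on 168FARN array 1 and 5 on 67NR array 3, each within its line. Within 4T1, 4 of the 5 were highest on array 3 and 1 on array 1. On 67NR array 3, 12 genes were at least 1 log2 unit over the mean of the other 2 arrays, which 0.985% of all genes were. Car3, carbonic anhydrase 3, led with 2.10, followed by Scd1 with 2.00, Thrsp, a regulator of fat synthesis, with 1.96, Lpl with 1.94 and Gpd1, which makes the glycerol phosphate backbone of fat, with 1.88. On 4T07 array 2 the genes at least 1 unit over were Gpd1 (1.21), Car3 (1.13), Thrsp (1.05) and Acsl1 (1.01). On 168FARN array 1 they were Retn (1.14), Thrsp (1.13) and Cfd (1.07).

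**Figure D2:**
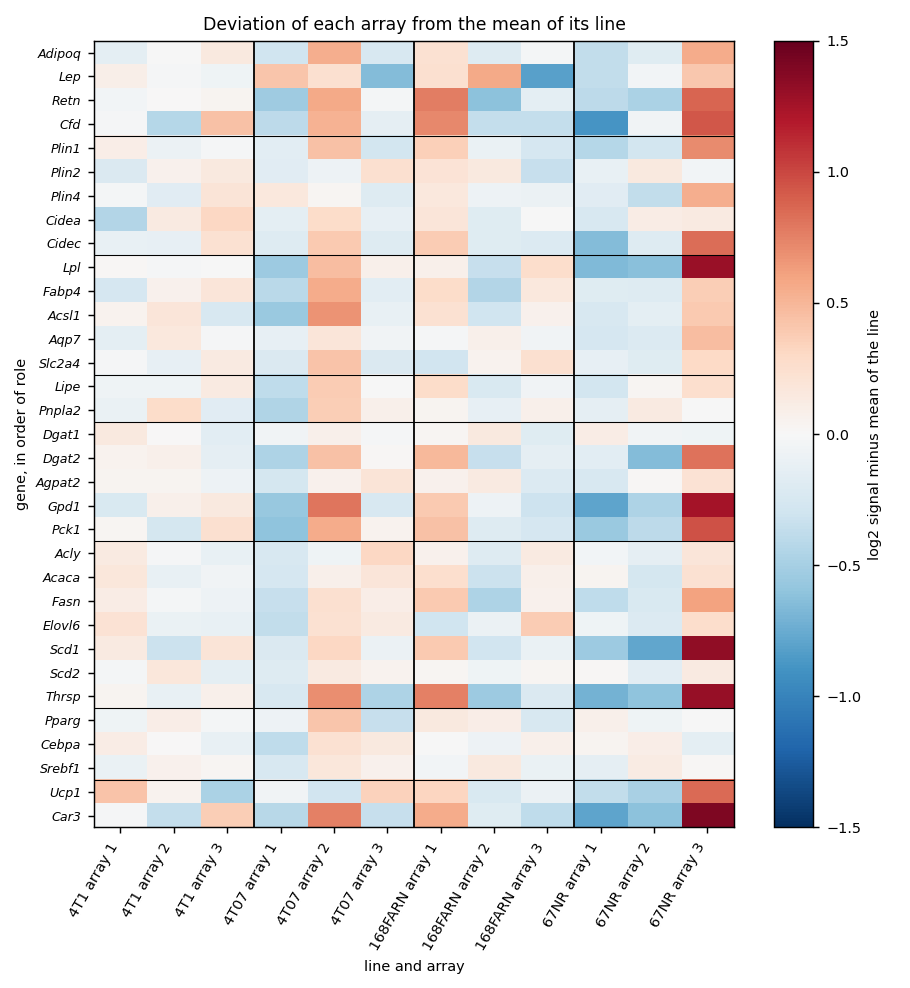
Log2 signal of each array minus the mean of its line, for the 33 genes in order of role (rows) and the 12 arrays (columns, 4T1 to 67NR), on a colour scale from -1.5 to 1.5. Red cells gather in the columns of 4T07 array 2, 168FARN array 1 and 67NR array 3, and the 4T1 columns are pale.

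The spread between arrays therefore exceeded the spread between lines for most of the list. The SD of the 4 line means was below the pooled SD within lines for 24 of 33 genes (72.7%), against 45.0% of all genes. The median SD within lines was 0.362 for the list and 0.233 for all genes, and 12 of 33 list genes were among the tenth of all genes with the highest SD within lines. The genes with a line mean spread above their array spread included Scd2, Fabp4, Agpat2, Adipoq, Dgat1 and Srebf1.

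**Figure D3:**
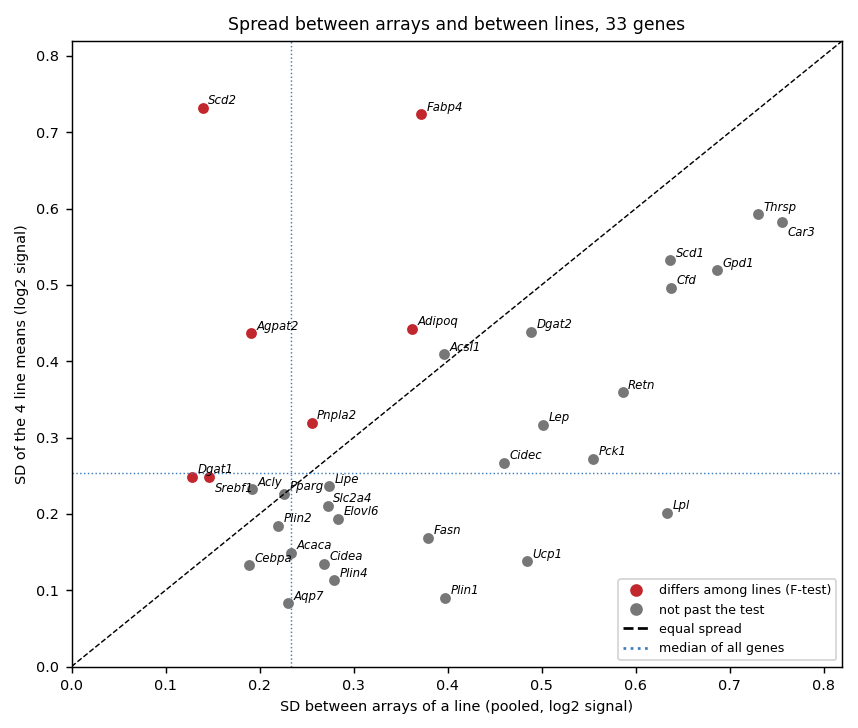
Pooled SD between arrays of a line (horizontal axis, log2 signal) against the SD of the 4 line means (vertical axis, log2 signal), 1 point per gene for 33 genes; red points passed the F-test among lines, the dashed line marks equal spread and the dotted lines the medians of all genes. 24 of 33 genes lie under the dashed line, with Car3, Thrsp and Gpd1 far to the right and Scd2, Fabp4 and Agpat2 above it.

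Between the 4 lines, limma's moderated F-test called 7 of the 33 genes at an adjusted p under 0.05 (21.2%), where it called 42.0% of all genes tested. The 7 were Scd2, Fabp4, Agpat2, Dgat1, Adipoq, Srebf1 and Pnpla2, with adjusted p-values between 5.96e-06 and 0.0382. In pairs, 5 genes were called for 4T1 against 67NR (background 22.3%), 3 for 4T07 against 67NR (23.7%), 2 for 168FARN against 67NR (24.7%), 4 for 4T1 against 168FARN (31.2%), 2 for 4T07 against 168FARN (28.3%) and 1 for 4T1 against 4T07 (2.38%). Each share of the list was below the background except in the last pair, where 1 of 33 is 3.03%. The 3 comparisons with 67NR share the 67NR arrays, and likewise for the others, so they are not independent of each other. Counted by arrays that did not overlap, 14 genes separated 4T1 from 67NR (44.1% of all genes did), 5 separated 4T07 from 67NR (36.9%), 5 168FARN from 67NR (40.8%), 13 4T1 from 168FARN (46.0%), 3 4T07 from 168FARN (37.1%) and 13 4T1 from 4T07 (17.9%). The last count, 39.4% of the list, was above the share of all genes, and the other counts were below theirs. Lower in 4T1 were 11 of the 14 against 67NR, 12 of the 13 against 168FARN and 10 of the 13 against 4T07. For all genes these shares are not split by direction. Median log2 changes over the list were -0.20 for 4T1, 0.12 for 4T07 and 0.11 for 168FARN, each against 67NR, where the medians of all genes were -0.04, -0.04 and 0.04.

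Among the adipokines, 1 of 4 was called in any pair. Adipoq was at 6.40, 6.54 and 6.69 in 4T1, 6.87, 7.71 and 6.93 in 4T07, 7.84, 7.42 and 7.58 in 168FARN, and 6.87, 7.05 and 7.79 in 67NR. All 3 arrays of 4T1 were below the other 9. Adipoq was lower in 4T1 (6.55 ± 0.14) than in 168FARN (7.61 ± 0.21) by 2.10-fold (log2 change -1.07, SE 0.259, limma adjusted p 0.00661), and 5 of 5 probesets were lower. Cfd averaged 8.15 ± 0.43 in 4T1, 9.20 ± 0.47 in 4T07, 9.09 ± 0.62 in 168FARN and 8.51 ± 0.91 in 67NR, with no pair called. Lep was below background, at 3.19 to 4.94 over the 12 arrays, so its levels were not compared.

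The uptake and transport genes held the largest called decrease of the list. Fabp4, the fatty acid carrier of fat cells, which macrophages and endothelial cells also make, was at 5.98, 6.31 and 6.42 in 4T1, 7.13, 8.09 and 7.37 in 4T07, 7.57, 6.86 and 7.46 in 168FARN, and 7.75, 7.74 and 8.31 in 67NR. The 3 arrays of 4T1 lay below all other arrays. Fabp4 was 3.24-fold lower in 4T1 than in 67NR (log2 change -1.70, SE 0.264, limma adjusted p 0.000409), 2.09-fold lower than in 168FARN (-1.06, adjusted p 0.0077) and 2.45-fold lower than in 4T07 (-1.29, adjusted p 0.02). Of its 12 probesets, 12 were lower in 4T1 than in 67NR, 11 than in 168FARN and 12 than in 4T07. The call against 4T07 was lost without 4T07 array 2 (adjusted p 0.0937), 4T1 array 1 (0.109) or 4T1 array 2 (0.059), and without the 3 arrays highest in adipocyte markers (0.0617). Acsl1, which activates long-chain fatty acids, was at 7.73, 7.85 and 7.43 in 4T1, 7.70, 8.93 and 8.14 in 4T07, 8.37, 7.85 and 8.21 in 168FARN, and 8.42, 8.51 and 9.06 in 67NR. It was 1.99-fold lower in 4T1 than in 67NR (log2 change -0.99, limma adjusted p 0.0205), with 27 of 27 probesets lower, and no other pair was called. That call was lost without 67NR array 3 (adjusted p 0.0853) or 4T1 array 3 (0.0828).

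Lpl was at 7.55, 7.52 and 7.54 in 4T1, 7.36, 8.36 and 7.97 in 4T07, 7.82, 7.41 and 8.02 in 168FARN, and 6.78, 6.83 and 8.74 in 67NR. 67NR thus held both the lowest and the highest arrays of the 12, and no pair was called. Aqp7, the glycerol channel, ran from 5.21 to 5.93 and Slc2a4, the insulin-responsive glucose transporter, from 5.71 to 6.55, with no pair called in either.

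**Figure D4:**
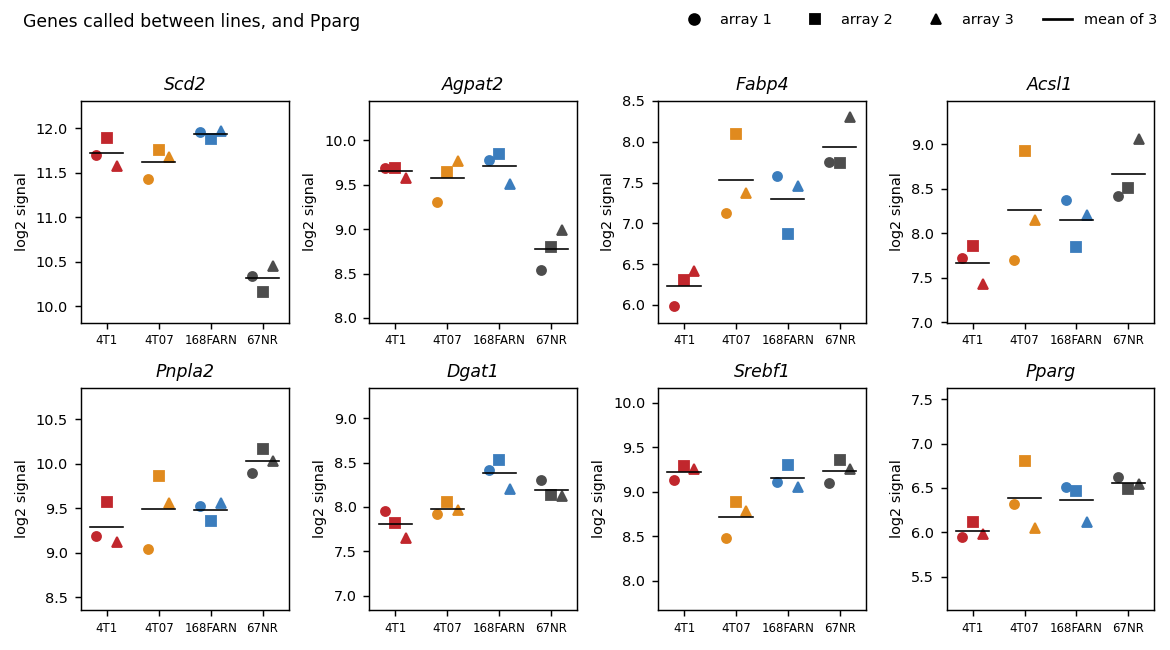
Log2 signal (vertical axis) by line (horizontal axis: 4T1, 4T07, 168FARN, 67NR) for the genes called between lines apart from Adipoq and Thrsp, and for Pparg, with 1 point per array and a bar for the mean of 3. Scd2 and Agpat2 have 67NR below the other 3 lines, and Fabp4 has 4T1 below them.

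Of the lipolysis genes, Pnpla2, the enzyme that removes the first fatty acid from stored fat, was at 9.19, 9.57 and 9.12 in 4T1, 9.04, 9.86 and 9.56 in 4T07, 9.52, 9.35 and 9.56 in 168FARN, and 9.90, 10.17 and 10.03 in 67NR. The 67NR arrays lay above all 9 others. Pnpla2 was 1.67-fold lower in 4T1 than in 67NR (log2 change -0.74, limma adjusted p 0.0169), with 13 of 14 probesets lower. The differences of 4T07 (1.46-fold, adjusted p 0.0674) and 168FARN (1.47-fold, 0.0606) from 67NR did not pass the test, with 14 of 14 probesets lower in each. Both passed in some alternatives, such as quantile normalization (limma adjusted p 0.0444 and 0.0203) and arrays centred on their median (0.0207 and 0.00916). The call for 4T1 was lost without 67NR array 2 (adjusted p 0.0684), 4T1 array 1 (0.0635) or 4T1 array 3 (0.0725). Lipe, the hormone-sensitive lipase, averaged 8.69 ± 0.12 in 4T1, 8.77 ± 0.39 in 4T07, 8.65 ± 0.26 in 168FARN and 9.17 ± 0.27 in 67NR, with no pair called.

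In triglyceride synthesis, Agpat2, which adds the second fatty acid to the glycerol backbone, separated 67NR from the rest. It was at 9.69, 9.69 and 9.58 in 4T1, 9.30, 9.64 and 9.77 in 4T07, 9.78, 9.85 and 9.51 in 168FARN, and 8.54, 8.80 and 8.99 in 67NR. No array of 67NR reached the others. Against 67NR it was 1.83-fold higher in 4T1 (log2 change 0.87, limma adjusted p 0.00199), 1.73-fold higher in 4T07 (0.79, 0.00374) and 1.91-fold higher in 168FARN (0.93, 0.0013). These calls held in all 24 alternatives tried, and at least 6 of 7 probesets were higher in each. Dgat1, which adds the third fatty acid, was lower in 4T1 (7.81 ± 0.15) than in 168FARN (8.38 ± 0.17; 1.48-fold, limma adjusted p 0.00755), with 18 of 18 probesets lower. With array 1 as the only 168FARN array the call was lost (adjusted p 0.0596). It was also lower in 4T07 (7.98 ± 0.07) than in 168FARN (1.32-fold, adjusted p 0.0485). The call for 4T07 was lost in 17 of 24 alternatives, among them leaving out any array but 168FARN array 3 (adjusted p 0.0552 to 0.155). The other enzyme of that step, Dgat2, averaged 7.35 ± 0.12 in 4T1, 8.36 ± 0.45 in 4T07, 7.83 ± 0.43 in 168FARN and 8.14 ± 0.74 in 67NR, with no pair called.

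Gpd1 and Pck1, which supply glycerol phosphate, varied more between arrays of a line than between line means. Gpd1 was at 5.66, 5.97 and 6.04 in 4T1, 6.19, 7.57 and 6.52 in 4T07, 7.51, 7.04 and 6.80 in 168FARN, and 5.70, 6.03 and 7.74 in 67NR. Pck1 was at 6.75, 6.45 and 6.95 in 4T1, 6.74, 7.89 and 7.39 in 4T07, 7.27, 6.63 and 6.57 in 168FARN, and 6.40, 6.57 and 7.91 in 67NR. Neither was called in a pair of the main fit, and the arrays of 67NR spanned 2.04 units in Gpd1 and 1.51 in Pck1. In Gpd1 the 4T1 arrays lay below the 168FARN arrays. That pair was called in some alternatives, such as a fit of the pair alone (log2 change -1.23, limma adjusted p 0.00258) and the mean of the probesets (-1.09, 0.0137).

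Fatty acid synthesis and desaturation held the gene with the smallest p of the list. Scd2, the desaturase found in many tissues, was at 11.70, 11.89 and 11.58 in 4T1, 11.43, 11.76 and 11.67 in 4T07, 11.96, 11.88 and 11.97 in 168FARN, and 10.34, 10.16 and 10.46 in 67NR. 67NR was below all 9 other arrays. It was 2.65-fold higher in 4T1 (log2 change 1.40, SE 0.146, limma adjusted p 1.33e-05), 2.47-fold higher in 4T07 (1.30, 2.61e-05) and 3.07-fold higher in 168FARN (1.62, 5.36e-06), each against 67NR, and 8 of 8 probesets were higher in all 3. Its sister Scd1, the desaturase of fat and liver, was at 11.09, 10.64 and 11.15 in 4T1, 11.64, 12.17 and 11.78 in 4T07, 12.41, 11.72 and 11.92 in 168FARN, and 10.55, 10.32 and 12.43 in 67NR. In Scd1, arrays 1 and 2 of 67NR were the lowest of the 12 and array 3 was the highest, and no pair was called.

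Thrsp was at 5.20, 5.04 and 5.23 in 4T1 and 7.36, 6.06 and 6.39 in 168FARN. It was 2.72-fold lower in 4T1 (log2 change -1.45, limma adjusted p 0.0357), and 5 of 5 probesets were lower. It did not pass the test when 168FARN array 1 (adjusted p 0.134) or array 3 (0.0572), or 4T1 array 1 (0.0751), 2 (0.089) or 3 (0.0733), was left out, nor with the mean of the probesets (-1.10, 0.0833), arrays centred on their median (0.0806) or a replicate block (0.0562). The general synthesis enzymes were not called in any pair of the main fit: Fasn, fatty acid synthase, averaged 10.51 ± 0.10 in 4T1, 10.40 ± 0.31 in 4T07, 10.12 ± 0.43 in 168FARN and 10.28 ± 0.53 in 67NR. Acly, which makes the acetyl-CoA for it, averaged 11.00 ± 0.13 in 4T1, 10.49 ± 0.28 in 4T07, 10.56 ± 0.17 in 168FARN and 10.78 ± 0.16 in 67NR. Acly was called higher in 4T1 than in 168FARN in some alternatives, such as quantile normalization (limma adjusted p 0.0208). Acaca, the carboxylase between them, averaged 8.26 to 8.59 over the lines, and Elovl6, an elongase, 8.74 to 9.13, with no pair called in either.

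Of the transcription factors, Srebf1, which turns on lipid synthesis genes, was lower in 4T07. It was at 9.13, 9.29 and 9.26 in 4T1, 8.48, 8.89 and 8.79 in 4T07, 9.11, 9.30 and 9.05 in 168FARN, and 9.10, 9.36 and 9.26 in 67NR. The 4T07 arrays lay below all others. It was 1.44-fold lower in 4T07 than in 67NR (log2 change -0.52, limma adjusted p 0.0213) and 1.36-fold lower than in 168FARN (-0.44, 0.0417). The first call was lost without 67NR array 2 (adjusted p 0.0908), 67NR array 3 (0.0588) or 4T07 array 1 (0.066), with the mean of the probesets (-0.32, 0.088), in a fit of the pair alone (0.0699) and without the 3 arrays highest in adipocyte markers (0.0609). The second was lost in 17 of 24 alternatives, among them leaving out any array but 4T07 array 2 (adjusted p 0.0521 to 0.137). Srebf1 in 4T1 against 4T07 was not called in the main fit. It was called higher in 4T1 with quantile normalization (log2 change 0.52, limma adjusted p 0.0451) and with arrays centred on their median (0.56, 0.0403). Pparg, the master regulator of fat cells, averaged 6.02 ± 0.09 in 4T1, 6.39 ± 0.38 in 4T07, 6.37 ± 0.21 in 168FARN and 6.55 ± 0.07 in 67NR. The 4T1 arrays lay below the 67NR arrays in Pparg, which was not past the test (limma adjusted p 0.0536). The pair was called in some alternatives, such as the mean of the probesets (adjusted p 0.0137) and array weights (0.0113). Cebpa, its partner, averaged 7.73 to 8.05 over the lines, with no pair called.

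Car3, abundant in fat cells and in slow skeletal muscle, was at 8.92, 8.58 and 9.31 in 4T1, 9.60, 10.77 and 9.67 in 4T07, 10.77, 10.03 and 9.83 in 168FARN, and 8.60, 8.78 and 10.79 in 67NR. No pair was called. Within 168FARN its highest array was array 1, on which the skeletal muscle genes were lowest, and the part of muscle was not tested.

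The counts moved with the arrays in the fit, and the arrays left out here were singled out after they were seen to be high in these genes, so the changes are given as a description. Without 67NR array 3 the F-test called 13 of the 33 genes, against 38.1% of all genes in the same fit. For 4T07 against 67NR 6 were called (19.3% of all genes) and for 168FARN against 67NR 7 (20.0%), each of them higher than in 67NR, and for 4T1 against 168FARN 7 (30.4%). That fit keeps the high arrays of 4T07 and 168FARN. With all 3 high arrays left out, an alternative chosen after seeing the data, the F-test called 10 genes (34.2% of all genes). The pairs then gave 6 calls for 4T1 (19.1%), 6 for 4T07 (17.8%) and 7 for 168FARN (17.5%), each against 67NR, 8 for 4T1 (27.9%) and 3 for 4T07 (22.9%) against 168FARN, with Slc2a4 in both on 168FARN arrays high in muscle genes, and 0 for 4T1 against 4T07 (1.07%), where limma gave 9 at an unadjusted p under 0.05. Against 67NR, Scd1 was then higher by 1.28 log2 units in 4T07 and 1.39 in 168FARN, Car3 by 0.94 and 1.24, and Lpl by 0.86 and 0.91, in the same order. Each line but 4T1 had 2 arrays in that fit.

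Single other arrays also moved the counts. Without 4T07 array 2 the F-test called 8 genes (39.8% of all genes), and it called 4 without 168FARN array 1 (39.9%), 4T1 array 2 (37.9%) or 4T1 array 3 (37.5%). For 4T1 against 67NR 3 genes were called without 4T1 array 3 (16.5%), and for 4T07 against 67NR 5 without 4T07 array 2 (20.4%). For 4T07 against 168FARN Dgat1 and Lep were called without 168FARN array 3 (24.0%), Lep at an adjusted p of 0.0479 and below background on every array. In that pair Srebf1 alone was called without 4T07 array 2 (24.8%), and 0 genes without any other array (22.2% to 27.5%), where limma gave 1 to 3 genes at an unadjusted p under 0.05. For 4T1 against 4T07 limma called 0 genes without 4T07 array 2, 4T1 array 1 or 4T1 array 2 (4 at an unadjusted p under 0.05 in each; 1.04% to 1.55% of all genes called), and Fabp4 and Acly without 4T07 array 3 (3.53%).

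The 3 high arrays also carried more of a further set of fat cell genes. Of 20 such genes 14 were measured, and their mean level was 5.80, 5.85 and 6.0 in 4T1, 6.07, 6.51 and 6.10 in 4T07, 6.54, 6.0 and 5.93 in 168FARN, and 5.82, 5.91 and 6.49 in 67NR. Over the 5 defining markers the mean was 7.07, 6.98 and 7.27 in 4T1, 7.37, 8.18 and 7.52 in 4T07, 8.29, 7.51 and 7.6 in 168FARN, and 6.88, 7.19 and 8.21 in 67NR. Of the 14 further genes, 1 was higher and 1 lower in 4T1 and 2 were higher in 4T07, each against 67NR, and limma called 0 in 168FARN against 67NR (0 at an unadjusted p under 0.05). Npr3, the clearance receptor for natriuretic peptides, was at 6.76, 6.84 and 6.63 in 4T1, 6.37, 6.95 and 6.76 in 4T07, 6.6, 6.20 and 5.78 in 168FARN, and 5.35, 5.56 and 6.37 in 67NR. It was 1.98-fold higher in 4T1 (limma adjusted p 0.0165) and 1.91-fold higher in 4T07 (0.0208) than in 67NR. The first call was lost without 67NR array 1 or 2 or 4T1 array 2 (adjusted p 0.0543 to 0.0784), and the second without 67NR array 1 or 2 or 4T07 array 2 or 3 (0.0558 to 0.0927). Cyp2e1, a drug-metabolising enzyme also found in fat, was at 5.22, 5.41 and 5.71 in 4T1 and 6.03, 7.83 and 8.37 in 67NR. It was 3.90-fold lower in 4T1 than in 67NR (limma adjusted p 0.0117), and the call was lost without 67NR array 2 (adjusted p 0.0504) or 67NR array 3 (0.0522).

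Of the marker lists of other cells, the muscle genes were high on arrays 2 and 3 of 168FARN, and the B cell genes were highest of their line on 2 of the 3 arrays high in adipocyte genes. 15 skeletal muscle genes averaged 5.76 to 5.97 in 4T1, 5.46 to 6.20 in 4T07, 5.45, 7.85 and 8.72 in 168FARN, and 5.34 to 5.88 in 67NR. Slc2a4, which muscle also makes, was at 5.98, 6.32 and 6.51 on the same 3 arrays of 168FARN, and the part of muscle in this was not tested. 8 B cell genes, whose source within the samples was not tested, averaged 7.09, 4.96 and 7.22 in 4T1, 6.67, 7.51 and 6.11 in 4T07, 6.28, 5.37 and 5.44 in 168FARN, and 5.28, 5.69 and 5.42 in 67NR. They were thus highest of their line on 4T07 array 2 and on 168FARN array 1, but not on 67NR array 3, and their part in the adipocyte gene result was not tested. 11 milk and secretory epithelium genes averaged 5.64, 4.88 and 5.29 in 4T1, 5.75, 7.04 and 7.21 in 4T07, 4.59 to 4.90 in 168FARN, and 4.94 to 5.14 in 67NR, so that 4T07 array 2 was also over array 1 of its line in milk genes. 14 endothelial genes averaged 7.82 to 8.29 in 4T1, 7.71 to 8.23 in 4T07, 7.61 to 7.73 in 168FARN and 8.22 to 8.60 in 67NR. 16 macrophage genes averaged 9.70 to 9.80 in 4T1, 9.18 to 9.58 in 4T07, 9.26 to 9.31 in 168FARN and 9.80 to 9.85 in 67NR. Both cell types can make Fabp4, and their part in its decrease in 4T1 was not tested.

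**Figure D5:**
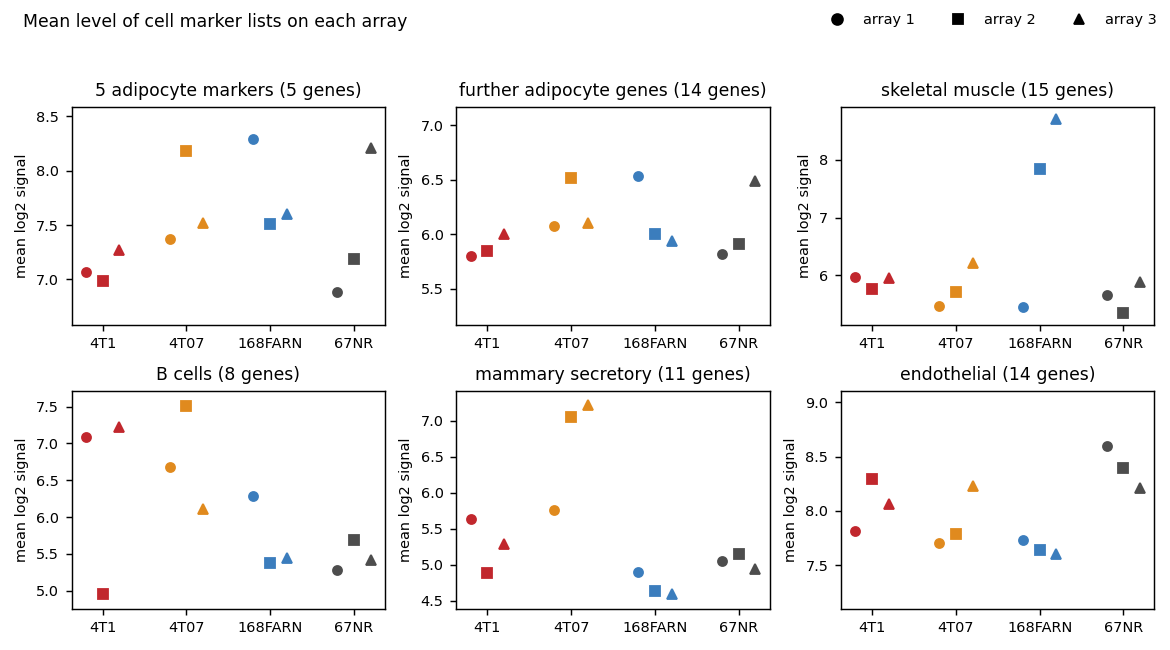
Mean log2 signal (vertical axis) of 6 marker lists on each array by line (horizontal axis: 4T1, 4T07, 168FARN, 67NR), 1 point per array shaped by its number. Both adipocyte lists are highest on 168FARN array 1, 67NR array 3 and 4T07 array 2, and the muscle list is highest on arrays 2 and 3 of 168FARN.

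The other genes of lipid metabolism were read from 7 further lists, set beside all genes. Of all genes, 9.38% rose and 13.0% fell in 4T1, 11.0% and 12.7% in 4T07, and 13.5% and 11.2% in 168FARN, each against 67NR. The median changes of the 7 lists in these comparisons ran from -0.33 to 0.39 log2 units. In fatty acid uptake, 17 genes were measured and 5 rose and 3 fell in each of 4T1, 4T07 and 168FARN against 67NR. Cd36, the fatty acid receptor of fat, endothelium and macrophages, was at 7.50, 7.63 and 7.80 in 4T1, 8.29, 9.0 and 8.83 in 4T07, 9.07, 8.49 and 8.90 in 168FARN, and 9.22, 9.25 and 9.46 in 67NR. It was 3.17-fold lower in 4T1 than in 67NR (limma adjusted p 4.81e-05), 2.26-fold lower than in 168FARN (0.000646) and 2.09-fold lower than in 4T07 (0.0127), in the same direction as Fabp4, and 1.52-fold lower in 4T07 than in 67NR (0.0452). The call of 4T1 against 4T07 was lost in 3 alternatives (adjusted p 0.0735 to 0.0796) and that of 4T07 against 67NR in 14 (0.051 to 0.161). Vldlr, a receptor for fat-carrying lipoproteins, averaged 8.57 ± 0.29 in 168FARN and 4.75 ± 0.19 in 67NR (adjusted p 3.79e-08), the 67NR level being below background. Gpihbp1, which anchors Lpl to capillary walls, was lower than in 67NR in 4T1 (1.72-fold, adjusted p 0.0416), 4T07 (2.05-fold, 0.00946) and 168FARN (1.92-fold, 0.0159). The call in 4T1 was lost in 6 alternatives that leave out 1 array (adjusted p 0.0518 to 0.182) and that in 168FARN in 3 alternatives (0.0617 to 0.0689), without 67NR array 1, 168FARN array 1 or the 3 high arrays.

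In the synthesis and elongation list, 18 genes were measured and 2 rose and 1 fell in 4T1, 3 and 3 in 4T07, and 3 and 1 in 168FARN, each against 67NR. Elovl7, an elongase, averaged 8.05 ± 0.07 in 4T1 and 7.93 ± 0.37 in 4T07, while 168FARN (4.27 ± 0.01) and 67NR (3.90 ± 0.18) were below background (limma adjusted p 8.97e-09 for 4T1 and 9.46e-09 for 4T07, each against 67NR). Slc25a1, the carrier that exports citrate for fat synthesis, was 2.33-fold higher in 4T1, 2.67-fold higher in 4T07 and 5.66-fold higher in 168FARN than in 67NR (adjusted p 0.000385, 0.000117 and 1.08e-06).

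Of 14 droplet and lipolysis regulators, 1 rose and 4 fell in 4T1, 1 and 5 in 4T07, and 1 and 1 in 168FARN, each against 67NR. Mgll, which takes the last fatty acid off stored fat, was 4.40-fold lower in 4T1, 3.83-fold lower in 4T07 and 3.92-fold lower in 168FARN than in 67NR (limma adjusted p 8.9e-05, 0.000194 and 0.000201). Cav1, a membrane protein of caveolae, was 4.98-fold lower in 4T1 and 5.63-fold lower in 4T07 than in 67NR (adjusted p 1.79e-05 and 1.04e-05). Among 15 triglyceride synthesis genes, 1 rose and 4 fell in 4T1, 4 fell in 4T07, and 5 rose and 2 fell in 168FARN, each against 67NR. Gpam, which adds the first fatty acid to glycerol phosphate, was 2.00-fold higher in 168FARN than in 67NR (adjusted p 0.00103).

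Of 19 cholesterol synthesis and SREBP genes, 6 rose and 1 fell in 168FARN against 67NR, 1 rose and 12 fell in 4T1 against 168FARN, and 1 rose and 10 fell in 4T07 against 168FARN. Of all genes, 11.9% rose and 19.3% fell in 4T1, and 11.4% and 16.8% in 4T07, each against 168FARN. Cyp51, a sterol synthesis enzyme, was 2.38-fold higher in 168FARN than in 67NR (limma adjusted p 0.000301). The counts against 67NR became 1 risen and 2 fallen when 168FARN was represented by array 1 alone, the array low in muscle genes, and in both comparisons with 168FARN they became 2 and 3. Of 23 fatty acid oxidation genes, 2 rose and 2 fell in 4T1, 2 and 2 in 4T07, and 4 rose in 168FARN, each against 67NR. Slc25a20, which carries fatty acids into mitochondria, was 2.22-fold higher in 4T1, 2.82-fold higher in 4T07 and 3.76-fold higher in 168FARN than in 67NR (adjusted p 0.000944, 0.000116 and 1.88e-05).

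Of 19 adipogenic regulators, 2 rose and 7 fell in 4T1, 3 and 7 in 4T07, and 1 and 7 in 168FARN, each against 67NR. Zfp423, a factor of fat cell precursors, was 3.17-fold lower in 4T1, 3.34-fold lower in 4T07 and 4.79-fold lower in 168FARN than in 67NR (limma adjusted p 2.02e-06, 1.56e-06 and 1.76e-07). The marker list of fat cell precursors and fat stroma, which also holds Zfp423, went both ways. Of its 11 genes, 2 rose and 5 fell in 4T1, 5 and 4 in 4T07, and 4 and 3 in 168FARN, each against 67NR. The median changes of that list were -0.16, 0.42 and 0.17 log2 units, in the same order. Klf15, a factor of mature fat and muscle, was 4.07-fold higher in 168FARN than in 67NR (adjusted p 0.00017). It was at 7.77 on 168FARN array 1, which was low in muscle genes, and the part of muscle was not tested.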

How the data were processed

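The log2 signals, 1 per probeset and array, were made by the authors from biotin-labelled, fragmented total RNA (Trizol) on an Affymetrix mouse exon array, per the labels' protocols. That they are log2 was read from their range and medians, and the normalization by the authors is not stated in the labels or file headers. All 12 columns were used as deposited. Of 228090 probesets, 207232 carried 1 gene symbol (GEO's platform annotation, 2111 symbols updated through RefSeq), 3882 several and 16976 none. A gene's level was the median of its probesets, for genes with at least 3. Groups came from the sample titles. 1 limma fit (version 3.58.1, R 4.3.3) on 15025 genes and all 12 arrays gave the F-test and the 6 pairs of lines, without covariates, with Benjamini-Hochberg adjustment over all genes and a threshold of 0.05. The code was tested on simulated data. The labels give no array batch, and no read depth exists for arrays, so their number limits the precision. No detection values were used, so background was taken from olfactory receptor genes. Of the other lists, the genes named were at most 3 per list with the largest change among those called against 67NR, plus Gpihbp1, Cd36, Hilpda, Srebf2 and a gene that is not reported here. The members and lists were chosen with earlier results of these data known. The alternatives were probeset averaging and filters, scaling, array weights, variance prior, samples in the fit, a replicate block and leaving out arrays.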

Additional observations from a re-analysis of the deposited data

How the results depend on the processing

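The calls of Scd2 and Agpat2 in each comparison with 67NR, of Fabp4 for 4T1 against 67NR and 168FARN, and of Adipoq for 4T1 against 168FARN held in all 24 alternatives, 1 of them (the 3 arrays highest in adipocyte markers left out together) chosen after seeing the data. Other pairs, not called in the main fit, were called in some alternatives, among them pairs of Gpd1, Pnpla2, Pparg, Acly, Scd1, Car3 and Slc2a4. Leaving out 1 array gave 4 to 13 members by the F-test, 3 to 7 for 4T1 against 67NR, 2 to 6 for 4T07 against 67NR, 2 to 7 for 168FARN against 67NR, 3 to 7 for 4T1 against 168FARN, 0 to 2 for 4T07 against 168FARN and 0 to 2 for 4T1 against 4T07. With 168FARN array 1 as the only array of its group, whose spread is then assumed to be that of the other lines, the F-test called 3 members and 4T07 against 168FARN 0. With those 3 arrays left out, limma called 6 for 4T07 against 67NR, 7 for 168FARN against 67NR, 8 for 4T1 against 168FARN and 0 for 4T1 against 4T07. Array weights gave 8 for 4T1 against 67NR and 0 for 4T07 against 168FARN. Centring the arrays on their medians gave 4 for 168FARN against 67NR, 0 for 4T07 against 168FARN and 2 for 4T1 against 4T07, and quantile normalization gave 1 and 2 in the last pair of comparisons. For 4T1 against 168FARN, the mean of the probesets, genes above background and a fit of the pair alone each gave 7, and the fit of the pair alone gave 0 for 4T07 against 168FARN. Where limma called 0 there, 1 to 3 members had an unadjusted p under 0.05, and 4 to 9 where it called 0 for 4T1 against 4T07. Lpl turned in sign for 4T1 against 67NR with the mean of the probesets (-0.035) and without 67NR array 1 (-0.245) or array 2 (-0.223), within a range of -0.245 to 0.734 over the arrays left out, and for 168FARN against 67NR without 67NR array 1 (-0.037) or array 2 (-0.0146), within a range of -0.037 to 0.942 over the arrays left out, and Slc2a4 for 4T07 against 168FARN with 168FARN array 1 alone (0.0301); neither was called with its sign turned. The cause was not tested. With the replicate number as a block the F-test called 7 members and the pairs 6, 3, 3, 3, 2 and 1, in the order of the report. No share of all genes called is given here for the fit with 168FARN array 1 alone or for the changes of processing and model. Those counts of members thus cannot be set against all genes. Same-numbered arrays of different lines had deviations with r from -0.086 to 0.191 (median 0.0128, 18 pairs). For arrays of different number r ran from -0.160 to 0.224 (median -0.00944, 36 pairs). No pairing by number was seen, but low correlations over all genes cannot exclude a shared day or batch.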

Other observations

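Of the fat cell genes outside the list, Sncg, gamma-synuclein, which fat cells and some carcinoma cells make, differed in 4T07. It was at 5.94, 6.30 and 6.56 in 4T1, 7.72, 8.18 and 7.91 in 4T07, 6.86, 6.53 and 6.69 in 168FARN, and 6.32, 6.41 and 7.06 in 67NR. It was 2.53-fold higher in 4T07 than in 67NR (limma adjusted p 0.000553), and its arrays in 4T07 lay above all others. Hilpda, a droplet protein induced at low oxygen, averaged 7.67 ± 0.26 in 4T07 and 7.0 ± 0.15 in 67NR (SD, n = 3 each; adjusted p 0.0111). Lpin3, of the family that makes diacylglycerol for storage, averaged 6.80 ± 0.02 in 4T1, 6.72 ± 0.16 in 4T07, 8.96 ± 0.37 in 168FARN and 7.76 ± 0.19 in 67NR, with every line called against 67NR. Cideb, a relative of Cidec known from liver, averaged 6.93 ± 0.11 in 168FARN and 5.75 ± 0.05 in 67NR (adjusted p 0.00015).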
